A study of Mus musculus with 22 samples.

Results

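Whether the effect of losing VISTA on mouse bone marrow (BM) myeloid cells depends on oxygen was examined over 16 culture libraries of the 22 libraries in the series. VISTA is an inhibitory checkpoint protein of myeloid and T cells encoded by Vsir. The measure was a difference of 2 knockout effects, computed for the 23187 genes listed in the count tables of both culture experiments. Each knockout effect is a log2 fold change of VISTA knockout (KO) over wild type (WT), and the effect in normoxia was subtracted from the effect in hypoxia, so a value above 0 means that the KO effect was higher in hypoxia. The 4 groups, each of 4 libraries, were KO cells and WT cells held in hypoxia with a time point of 24 hours, and KO cells and WT cells cultured in normoxia until day 4. All 4 groups had the C57BL/6N background, and the culture medium of the normoxia cells contained the cytokines GM-CSF and IL-6. The labels describe BM myeloid cells that were grown into myeloid-derived suppressor cells (MDSCs). They do not give the oxygen level or the KO allele, and say only of the normoxia cultures that the replicates were biologically independent, so p-values in hypoxia measure the spread between libraries that may be technical. In the hypoxia and normoxia tables the KO columns carry a code, read as KO because the other columns are named WT.

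Oxygen cannot be told apart here from the time point (24 hours against day 4) or from the count table and its depth. The same holds for any difference in culture medium, whose cytokines are stated above for the normoxia cells alone. Each oxygen condition was deposited as 1 table, and the labels do not say whether the 24 hours followed days of culture in normoxia. A shift by the same factor in KO and WT cells of a condition cancels in the difference. One that touches a single genotype, or that adds the same amount of RNA to both, does not cancel. In bulk RNA, fewer cells of a type and less RNA per cell cannot be told apart either, and this holds for every result below.

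MDSCs are immature neutrophil-like and monocyte-like cells that restrain T cells. When oxygen is low, the HIF transcription factors are stabilised and switch on genes of glucose uptake, glycolysis and blood vessel growth, and low oxygen is a common state inside tumors. MHC class II molecules, which display peptides to CD4+ T cells, are carried by dendritic cells, macrophages and B cells rather than by neutrophils. Their genes are controlled together by CIITA, a coactivator that binds no DNA itself and is recruited by factors sitting on short elements upstream of each gene, among them a CCAAT box bound by NF-Y and an element resembling the cyclic AMP response element.

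Library totals were 30839108 to 31385825 counts in hypoxia and 23409142 to 23722932 counts in normoxia. Levels are given as CPM, the count scaled to a common library size, and are not divided by gene length, so they are compared between libraries and not between genes. Vsir, the targeted gene, had 163, 171, 163 and 117 CPM in hypoxia KO libraries 1 to 4 and 552, 630, 534 and 550 CPM in hypoxia WT libraries. In normoxia it had 132, 138, 176 and 237 CPM in KO libraries and 630, 628, 818 and 660 CPM in WT libraries. All KO libraries thus lay below all WT libraries in both conditions, as the labels have it. The KO effect on Vsir was -1.89 in hypoxia and -2.0 in normoxia on the log2 scale, and the difference of 0.12 ± 0.22 (SE) was not called (edgeR quasi-likelihood test, adjusted p = 0.988). Neutrophil genes were abundant in every group: the summed level of 24 late granule and surface genes was 63700 to 77800 CPM in hypoxia KO, 32700 to 43100 CPM in hypoxia WT, 55100 to 85200 CPM in normoxia KO and 44300 to 56900 CPM in normoxia WT libraries. The 4 T and NK cell genes that could be tested, of 16, summed to 41.7 CPM at most.

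Most of the knockout response did not differ detectably between the conditions. After a filter on low counts 15293 genes were tested in 1 edgeR model of all 16 libraries, with Benjamini-Hochberg adjusted p under 0.05 as the threshold for a call. The difference of the KO effects was called in 73 genes (0.477% of the tested genes), with 29 above 0 (0.19%) and 44 below 0 (0.288%). Unadjusted p was under 0.05 in 1226 genes, or 8.02%. The KO effect itself was called in 4442 genes in hypoxia (29%), of which 2236 rose (14.6%) and 2206 fell (14.4%). In normoxia it was called in 2983 genes (19.5%), of which 1738 rose (11.4%) and 1245 fell (8.14%). Scaled by library size alone, the difference split into 42 genes above and 42 below 0, and the normoxia effect into 1233 higher and 2131 lower.

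The KO effects of the 2 conditions share no libraries. Both were called in 1999 genes, with the same sign in 1974 of these and the opposite sign in 25. Across genes, which are not independent replicates, the 2 effects had a Pearson correlation of 0.628 and a Spearman correlation of 0.692. The SE of the difference had a median of 0.182 over all genes, and the difference itself ran from -0.60 at the 5th percentile to 0.56 at the 95th percentile with a median of -0.0099. Small differences were therefore not detectable at this spread, and what follows concerns the genes with large or tightly measured ones.

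**Figure D1:**
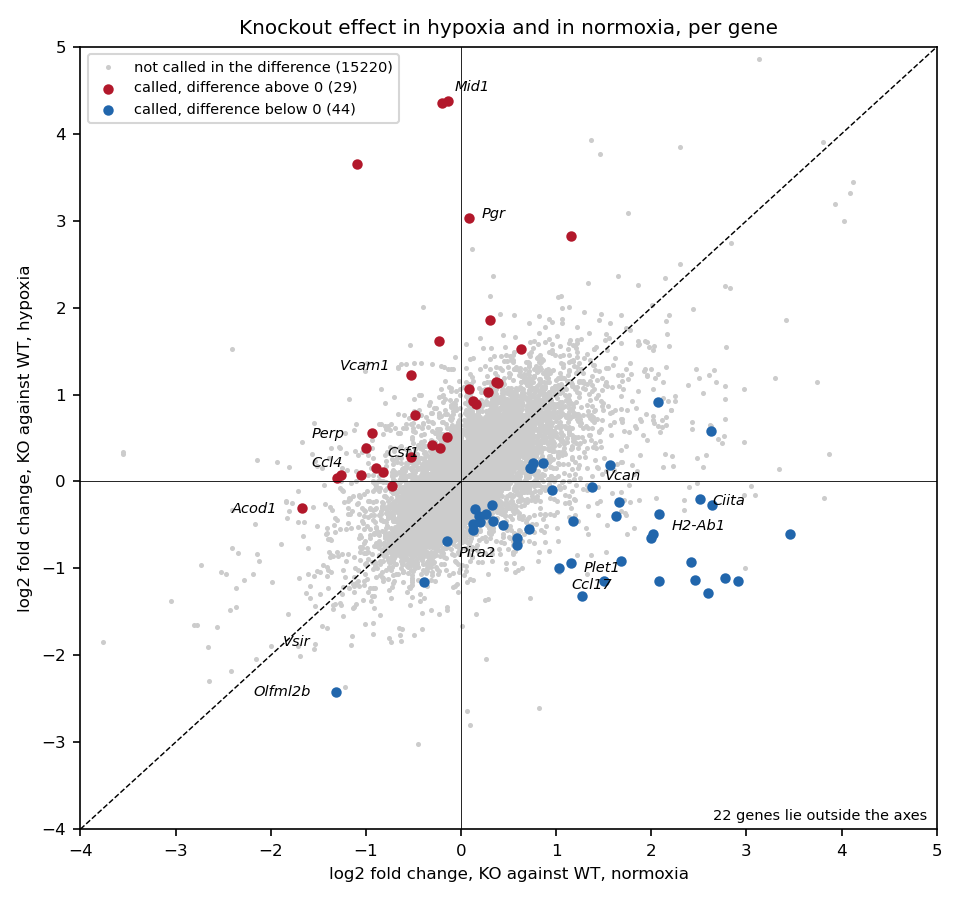
Each point is 1 of the 15293 tested genes, with its log2 KO effect in normoxia on the x axis and in hypoxia on the y axis. The 29 genes called above 0 in the difference (red) lie above the dashed line of equal effects, the 44 called below 0 (blue) lie under it, and 22 genes lie outside the axes.

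The 73 called genes fell into 4 kinds. In 20 genes the KO effect was called in both conditions with opposite signs, and in 16 of these the gene fell in hypoxia and rose in normoxia. In 9 genes both effects were called with the same sign but a different size. In 22 genes the effect was called in hypoxia and not in normoxia, with 14 that rose and 8 that fell. In the other 22 it was called in normoxia and not in hypoxia, with 16 that rose and 6 that fell. Of the 73 calls, 30 were made in each of the 16 fits that left out 1 library. The number of calls was 40 without hypoxia KO library 2, 43 without hypoxia KO library 4, and 41, 46 and 45 without hypoxia WT libraries 1, 2 and 3. It was 48 without normoxia KO library 3, and 47 and 40 without normoxia WT libraries 2 and 4. Calls of the KO effect in hypoxia numbered 2929 without hypoxia WT library 3, and those in normoxia 1782 without normoxia KO library 4 and 1856 without normoxia WT library 2. DESeq2 called 200 genes in the difference, including all 73.

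Genes of MHC class II stood lower in the difference than any other list of 5 or more tested members apart from the erythroid genes, which had no call. Of 13 MHC class II and presentation genes, 2 were called, both below 0, and a further 6 had an unadjusted p under 0.05 with a difference below 0. The median difference of the list was -0.95, against -0.0099 over all tested genes. In normoxia 6 of the 13 rose in KO cells and none fell, with a median KO effect of 0.74. In hypoxia none was called, and the median KO effect was -0.20. The promoters of H2-Aa and H2-Eb1, the genes of an alpha and a beta chain whose group means had the same order, are shown because they carry elements of the kind through which CIITA acts. They are RefSeq promoters on GRCm38.p6 from 250 bases before to 50 bases from the gene start on, 5′ to 3′ in the direction of the gene, with CCAAT on either strand and TGACGTCA in capitals.
H2-Aa, chr17:34287774-34288073, minus strand: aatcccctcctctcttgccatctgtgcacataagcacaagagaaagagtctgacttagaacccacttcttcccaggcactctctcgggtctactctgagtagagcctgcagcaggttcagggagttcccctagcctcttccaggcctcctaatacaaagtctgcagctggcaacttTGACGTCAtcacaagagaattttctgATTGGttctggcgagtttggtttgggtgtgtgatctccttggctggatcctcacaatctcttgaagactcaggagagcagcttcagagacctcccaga
H2-Eb1, chr17:34305617-34305916, plus strand: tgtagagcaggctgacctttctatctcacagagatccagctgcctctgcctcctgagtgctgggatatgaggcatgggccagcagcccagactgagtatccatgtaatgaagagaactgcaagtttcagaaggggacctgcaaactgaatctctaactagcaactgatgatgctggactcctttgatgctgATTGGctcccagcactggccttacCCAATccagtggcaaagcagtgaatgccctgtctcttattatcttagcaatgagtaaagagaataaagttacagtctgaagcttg

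In H2-Aa the CCAAT match begins at position -48 and the TGACGTCA match at position -74 relative to the gene start. In H2-Eb1 the CCAAT matches begin at positions -59 and -35, and TGACGTCA does not occur in this window. Of 32851 promoters of this length, 37.4% held CCAAT on either strand and 1.79% held the palindrome TGACGTCA, so a CCAAT match on its own is common. Among the called genes with a promoter in the table, CCAAT was present in 11 of 30 with a difference below 0 (36.7%) and in 8 of 21 with a difference above 0 (38.1%), against 39.3% of the tested genes with a promoter. TGACGTCA was present in 0 of the 30 and 0 of the 21, against 3.15% of the tested genes. Ciita and H2-Ab1 are not among these promoters. The matches are descriptions of the sequence and not of factor binding.

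Ciita (chr16:10480059-10528418, GRCm38) encodes the coactivator itself. It had 23.1, 21.1, 24.4 and 10.5 CPM in hypoxia KO libraries, 17.1, 29.9, 19.3 and 24.6 CPM in hypoxia WT libraries, 6.55, 8.65, 6.19 and 12.3 CPM in normoxia KO libraries and 1.73, 0.708, 2.27 and 1.19 CPM in normoxia WT libraries. The 2 hypoxia groups overlapped and had the highest means, although hypoxia KO library 4 lay below normoxia KO library 4. In normoxia every KO library lay above every WT library. The KO effect was -0.20 in hypoxia and 2.51 in normoxia, and the difference was -2.71 ± 0.46 (95% interval -3.68 to -1.74, edgeR adjusted p = 0.0138). This call was made in all 16 fits without 1 library and in 10 of 13 other settings, with an adjusted p of at most 0.0828 in the others, among them voom weights by oxygen condition (limma adjusted p = 0.06).

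H2-Ab1 (chr17:34257689-34269419), the beta chain of the MHC class II molecule I-A, had the same order of group means. It had 148, 122, 131 and 62.4 CPM in hypoxia KO libraries and 141, 183, 125 and 151 CPM in hypoxia WT libraries, which overlapped. Normoxia KO libraries had 34.4, 59.2, 43.5 and 84.7 CPM, all above the 11.4, 7.71, 23.2 and 10.3 CPM of WT libraries. The KO effect was -0.37 in hypoxia and 2.08 in normoxia, and the difference was -2.45 ± 0.49 (edgeR adjusted p = 0.0411). The call on H2-Ab1 was lost in 12 of the 16 fits without 1 library, with adjusted p up to 0.118, and was made only without hypoxia KO library 1 or 3, normoxia KO library 1 or normoxia WT library 3. Its log2 difference lay between -2.87 and -2.17 in those 16 fits.

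The alpha chain H2-Aa averaged 127 ± 45.4 CPM in hypoxia KO, 147 ± 33.6 CPM in hypoxia WT, 49.7 ± 22.9 CPM in normoxia KO and 9.82 ± 5.39 CPM in normoxia WT libraries (SD, n = 4 each). Its difference of -2.55 ± 0.56 missed the threshold (edgeR adjusted p = 0.0682), and so did that of H2-Eb1, a beta chain of the molecule I-E, at -2.68 ± 0.58 (edgeR adjusted p = 0.0642). Without normoxia WT library 3, which had the highest MHC class II levels of its group, both passed, with adjusted p of 0.0307 for H2-Aa and 0.0251 for H2-Eb1. Cd74, the invariant chain that guides MHC class II molecules through the cell, had a difference of -1.40 (edgeR adjusted p = 0.165).

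**Figure D2:**
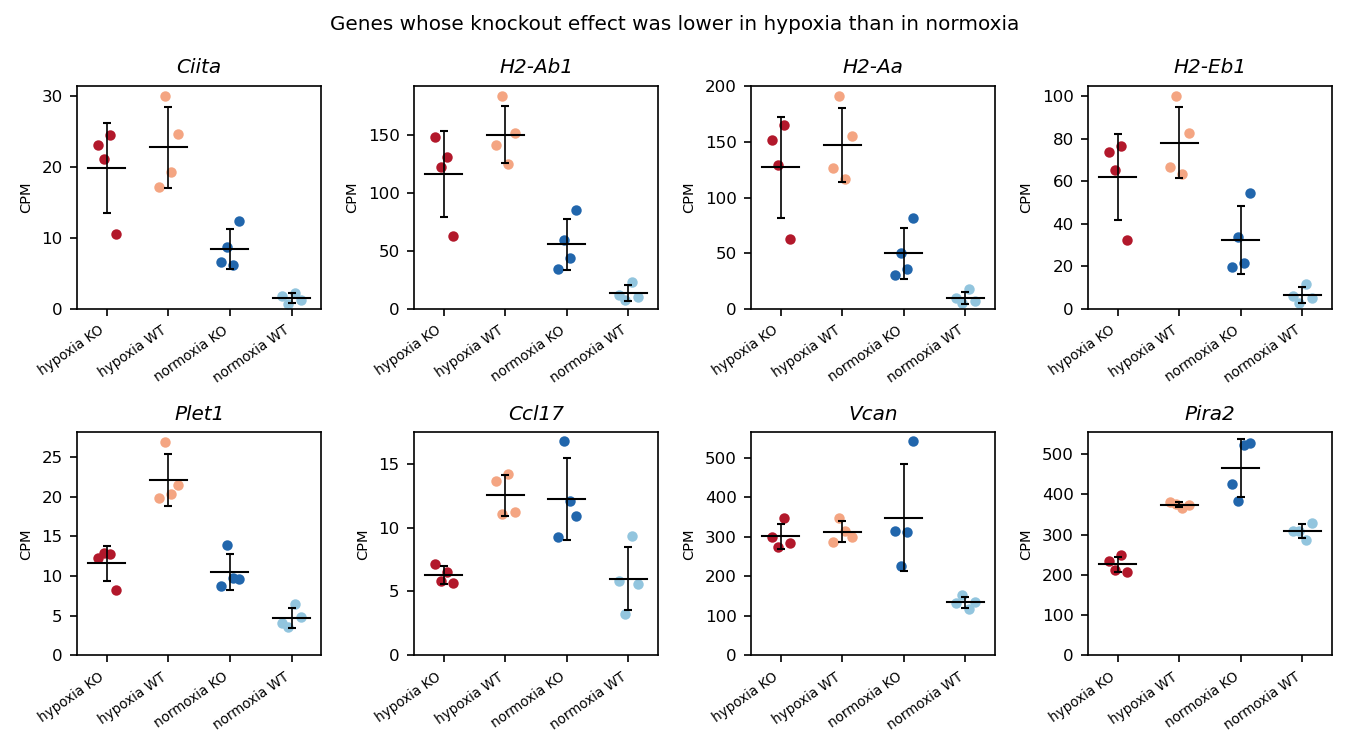
CPM (y axis, 1 scale per gene) in each library (points) with the group mean and SD (bars) for 8 genes whose KO effect was lower in hypoxia than in normoxia. In Ciita and H2-Ab1 the hypoxia groups overlap and the normoxia WT libraries are lowest, in Plet1 and Pira2 the KO libraries lie under WT in hypoxia and above WT in normoxia, and H2-Aa and H2-Eb1 are shown without a call.

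In the lists of markers for cells that carry MHC class II, no gene was called in the difference. Outside these lists some genes described here with such cells were called. Among them were Ccl17, Cst3 and Itgae of dendritic cells below 0, and Acod1 of activated macrophages above 0. Of 16 dendritic cell genes 15 were tested and 11 of these had a difference below 0, with a median of -0.73, 5 with an unadjusted p under 0.05 and no call. Their summed level was 158 to 273 CPM in hypoxia KO and 269 to 324 CPM in hypoxia WT libraries, against 166 to 203 CPM in normoxia KO and 170 to 207 CPM in normoxia WT libraries. In hypoxia the highest KO library was marginally above the lowest WT library, and in normoxia the genotypes overlapped throughout. Flt3, the receptor that drives dendritic cell growth, was at 0 in 3 normoxia WT libraries and at most 0.179 CPM in normoxia KO libraries. Its difference thus rested on normoxia counts near 0. The other 4 of the 15 tested genes had a difference above 0, the highest at 0.67. Of 22 monocyte and macrophage genes, 18 had a difference below 0, with a median of -0.32 and no call, and their sum was 8080 to 11500 CPM in hypoxia KO, 8320 to 11100 CPM in hypoxia WT, 11500 to 18300 CPM in normoxia KO and 8740 to 12900 CPM in normoxia WT libraries. Of 12 B and plasma cell genes 6 were tested, with 5 below 0, a median of -0.53 and no call. In KO cells 4 of these 6 rose in hypoxia and 4 in normoxia, with median KO effects of 1.87 in hypoxia and 2.39 in normoxia. Their sum was 131 to 220 CPM in hypoxia KO against 71.5 to 87 CPM in hypoxia WT libraries, and 91.6 to 149 CPM in normoxia KO against 35.4 to 49 CPM in normoxia WT libraries. The part of these cells in the MHC class II result was not tested.

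Plet1 and Ccl17 came next in size among the named genes below 0. Plet1, a membrane protein known from progenitor cells and intestinal dendritic cells, had 12.3, 12.9, 12.8 and 8.25 CPM in hypoxia KO libraries and 19.8, 26.9, 20.3 and 21.4 CPM in hypoxia WT libraries. In normoxia it had 8.78, 13.9, 9.67 and 9.56 CPM in KO libraries and 4.00, 3.50, 6.41 and 4.80 CPM in WT libraries. The genotypes did not overlap in either condition, and KO cells were lower in hypoxia and higher in normoxia. The KO effect was -0.94 in hypoxia and 1.16 in normoxia, a difference of -2.10 ± 0.26 (edgeR adjusted p = 0.000343).

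Ccl17, a chemokine of dendritic cells that attracts T cells, had 7.15, 5.83, 6.49 and 5.69 CPM in hypoxia KO libraries, all below the 13.7, 11.1, 14.2 and 11.2 CPM of hypoxia WT libraries. Levels in normoxia were 9.30, 16.8, 12.1 and 10.9 CPM in KO libraries and 5.84, 3.27, 9.33 and 5.59 CPM in WT libraries, with 1 WT library marginally above the lowest KO library. The KO effects of -1.0 in hypoxia and 1.03 in normoxia were both called and differed by -2.03 ± 0.32 (edgeR adjusted p = 0.00724). Pira2, an activating receptor of the paired immunoglobulin-like family, had 235, 213, 248 and 208 CPM in hypoxia KO libraries and 381, 377, 366 and 373 CPM in hypoxia WT libraries. In normoxia Pira2 had 427, 384, 524 and 528 CPM in KO libraries and 310, 310, 286 and 330 CPM in WT libraries, so that the groups were apart in both conditions and in opposite directions. Its difference of -1.32 ± 0.13 had the smallest adjusted p among the named genes (edgeR adjusted p = 4.88e-05). Pira2 belongs to a family of near-identical genes, and the transcript of the called pseudogene Gm15922 is 99.5% identical to it, so how the counting divided their reads is uncertain. Both were called with a similar difference, -1.24 in Gm15922, which is no separate evidence if they share reads. Of 9 tested genes alike to Pira2, 1 was called. The closest protein-coding one, Gm14548 (97.8% identical over the aligned part), had a difference of -0.43 (edgeR adjusted p = 0.065). Its KO effect was 0.19 in hypoxia and 0.62 in normoxia, so it did not share the fall of Pira2 in hypoxia.

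Vcan encodes versican, a large matrix proteoglycan of monocytes. It had 300, 273, 347 and 284 CPM in hypoxia KO libraries, which overlapped the 287, 348, 315 and 300 CPM of hypoxia WT libraries. In normoxia it had 314, 227, 311 and 543 CPM in KO libraries, all above the 133, 152, 117 and 135 CPM of WT libraries. The difference was -1.43 ± 0.26 (edgeR adjusted p = 0.0193), and it reached adjusted p of 0.05 to 0.0521 without hypoxia KO library 2 or 4, hypoxia WT library 2 or normoxia WT library 4. As with Ciita, the WT cells in normoxia were the group that stood low.

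Olfml2b, a secreted protein of the olfactomedin family, fell in KO cells in both conditions and further in hypoxia. It averaged 7.41 CPM in hypoxia KO against 39.8 CPM in hypoxia WT, and 13.7 CPM in normoxia KO against 34.1 CPM in normoxia WT libraries. The KO effects were -2.42 and -1.31, and the difference was -1.12 ± 0.18 (edgeR adjusted p = 0.0047). Met, the receptor of hepatocyte growth factor, also fell in both, by 1.16 in hypoxia and by 0.39 in normoxia on the log2 scale, with a difference of -0.76 ± 0.16 (edgeR adjusted p = 0.0334). Met kept its call in only 4 of the 16 fits without 1 library, those without normoxia KO library 4 or normoxia WT library 1, 3 or 4, and adjusted p reached 0.0753 in the others.

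Crybg1, Cst3 and Arhgef10l fell in hypoxia and rose in normoxia by at most 0.50 on the log2 scale. Cst3 encodes the protease inhibitor cystatin C, which dendritic cells express strongly. It averaged 252 CPM in hypoxia KO against 327 CPM in hypoxia WT, and 347 CPM in normoxia KO against 290 CPM in normoxia WT libraries, a difference of -0.63 ± 0.12 (edgeR adjusted p = 0.0227). Arhgef10l had a difference of -0.59 ± 0.12 (edgeR adjusted p = 0.0227), and Crybg1 had -0.94 ± 0.17 (edgeR adjusted p = 0.0122). P2ry13, a receptor for extracellular ADP, fell in hypoxia (KO effect -0.45) and was not called in normoxia (0.34, edgeR adjusted p = 0.0519), with a difference of -0.79 ± 0.17 (edgeR adjusted p = 0.0411). Crybg1 was called in all 16 fits without 1 library. Cst3 was not called in 8 of them (adjusted p up to 0.0664): without hypoxia KO library 2 or 4, hypoxia WT library 1 or 2, normoxia KO library 3 or normoxia WT library 1, 2 or 4. Arhgef10l was not called in 6 (adjusted p up to 0.0713): without hypoxia KO library 2, hypoxia WT library 1 or 3, normoxia KO library 1 or normoxia WT library 2 or 4. P2ry13 was called in 4 only, those without hypoxia KO library 3, hypoxia WT library 4, normoxia KO library 2 or normoxia WT library 3, and reached adjusted p = 0.113 in the others.

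Among the called genes above 0 with a mean log2 CPM of 3 or more and no predicted or pseudogene name, Mid1 had the largest difference. Mid1 (chrX:169685199-170005736) encodes a microtubule-associated ubiquitin ligase, and in laboratory mice the gene spans the boundary of the pseudoautosomal region. It had 83.0, 74.8, 107 and 132 CPM in hypoxia KO libraries and 4.50, 4.46, 4.16 and 6.30 CPM in hypoxia WT libraries. Normoxia KO libraries had 1.29, 2.16, 2.41 and 0.538 CPM, and normoxia WT libraries had 1.69, 2.60, 1.09 and 2.02 CPM. The hypoxia KO libraries stood alone, and the normoxia genotypes overlapped near the bottom. The KO effect was 4.35 in hypoxia and -0.20 in normoxia, a difference of 4.55 ± 0.46 (95% interval 3.58 to 5.52, edgeR adjusted p = 0.000131). The Y-linked pseudogenes Mid1-ps1 and Gm21742, whose aligned transcripts are 99.9% and 100% identical to Mid1, were called with differences of 4.53 and 4.75, and reads of the 3 genes may have been divided between them.

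Pgr encodes the progesterone receptor. It had 7.36, 9.09, 13.4 and 9.70 CPM in hypoxia KO libraries, 0.934, 1.19, 1.49 and 1.2 CPM in hypoxia WT libraries, 14.0, 12.5, 18.5 and 25.8 CPM in normoxia KO libraries and 15.6, 15.2, 22.9 and 13.3 CPM in normoxia WT libraries. Here the hypoxia WT libraries were the low group, and the other 3 groups lay above them with no overlap. The KO effect was 3.03 in hypoxia and 0.08 in normoxia, a difference of 2.96 ± 0.35 (edgeR adjusted p = 0.000335). Vcam1, an adhesion molecule that binds leukocyte integrins, averaged 21.9 ± 4.88 CPM in hypoxia KO, 9.31 ± 1.79 CPM in hypoxia WT, 6.53 ± 2.37 CPM in normoxia KO and 9.39 ± 2.49 CPM in normoxia WT libraries (SD, n = 4 each). Its difference was 1.76 ± 0.33 (edgeR adjusted p = 0.0227). The Vcam1 call was lost without hypoxia KO library 2 or 4, hypoxia WT library 1 or 2, normoxia KO library 1 or 3 or normoxia WT library 4, with adjusted p of 0.0546 to 0.0637.

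Acod1, Ccl4, Csf1, Stc2 and Olr1 fell in KO cells in normoxia, and among them only Acod1 was called in hypoxia. Acod1 encodes the enzyme that makes the antimicrobial metabolite itaconate in activated macrophages. It had 51.1, 51.8, 37.2 and 42.9 CPM in hypoxia KO libraries, which overlapped the 51.5, 56.5, 53.7 and 64.4 CPM of hypoxia WT libraries. In normoxia it had 13, 15.3, 14.6 and 10.9 CPM in KO libraries, all far below the 46.2, 45.5, 40.6 and 38.9 CPM of WT libraries. The KO effect was -0.31 in hypoxia and -1.67 in normoxia, a difference of 1.37 ± 0.16 (edgeR adjusted p = 0.000313).

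Csf1, the growth factor of macrophages, had 131, 132, 97.1 and 106 CPM in hypoxia KO libraries and 103, 116, 101 and 113 CPM in hypoxia WT libraries, which overlapped. In normoxia the KO libraries, at 25.9, 27.5, 25.3 and 26.6 CPM, were all below the WT libraries, at 43.3, 42.5, 54.5 and 45.5 CPM. The difference was 0.92 ± 0.14 (edgeR adjusted p = 0.00401). Ccl4, a chemokine for monocytes and T cells, averaged 76.8 CPM in hypoxia KO against 73.3 CPM in hypoxia WT, and 5.62 CPM in normoxia KO against 11.7 CPM in normoxia WT libraries, with a difference of 1.12 ± 0.22 (edgeR adjusted p = 0.0292). Stc2, a secreted glycoprotein of the stress response, averaged 14.6 CPM in hypoxia KO against 13.9 CPM in hypoxia WT, and 2.23 CPM in normoxia KO against 5.40 CPM in normoxia WT libraries, with a difference of 1.33 ± 0.26 (edgeR adjusted p = 0.0238). In all 3 genes both hypoxia groups lay above both normoxia groups. Ccl4 kept its call without hypoxia KO library 3, any normoxia KO library but 1, or normoxia WT library 1, 2 or 3, and reached adjusted p = 0.0738 in the other 9 fits. Stc2 lost its call (adjusted p up to 0.0702) without hypoxia KO library 4, hypoxia WT library 1, 2 or 3, normoxia KO library 3 or normoxia WT library 4.

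Perp and Chst11 moved in opposite directions in the 2 conditions. Perp, a membrane protein induced by p53, had 21, 21.4, 17.3 and 19.3 CPM in hypoxia KO libraries, above the 14.6, 14.9, 15.8 and 15.5 CPM of hypoxia WT libraries. Levels in normoxia were 5.14, 4.97, 5.41 and 3.59 CPM in KO libraries, below the 9.30, 8.03, 10 and 11.1 CPM of WT libraries. The KO effects of 0.38 and -1.0 differed by 1.38 ± 0.17 (edgeR adjusted p = 0.000316). Chst11, a sulfotransferase that modifies chondroitin chains, averaged 143 CPM in hypoxia KO against 110 CPM in hypoxia WT, and 99.7 CPM in normoxia KO against 116 CPM in normoxia WT libraries, a difference of 0.59 ± 0.10 (edgeR adjusted p = 0.0118).

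Far2 and Arsb rose further in hypoxia. Far2, an enzyme that makes fatty alcohols, averaged 13.3 CPM in hypoxia KO against 4.62 CPM in hypoxia WT, and 15.3 CPM in normoxia KO against 9.91 CPM in normoxia WT libraries, with a difference of 0.89 ± 0.18 (edgeR adjusted p = 0.0331). Arsb, a lysosomal sulfatase, averaged 245 CPM in hypoxia KO against 129 CPM in hypoxia WT, and 70.4 CPM in normoxia KO against 64.1 CPM in normoxia WT libraries, with a difference of 0.79 ± 0.16 (edgeR adjusted p = 0.0275). Far2 rose in both conditions, and Arsb was called in hypoxia alone. Far2 was called in 6 of the 16 fits without 1 library, those without hypoxia KO library 1, 3 or 4, normoxia KO library 2 or 4 or normoxia WT library 4, and reached adjusted p = 0.0827 in the others. Arsb was called in 8, those without hypoxia KO library 1 or 3, hypoxia WT library 3 or 4, normoxia KO library 2 or 4 or normoxia WT library 1 or 3, and reached adjusted p = 0.0802 in the others.

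**Figure D3:**
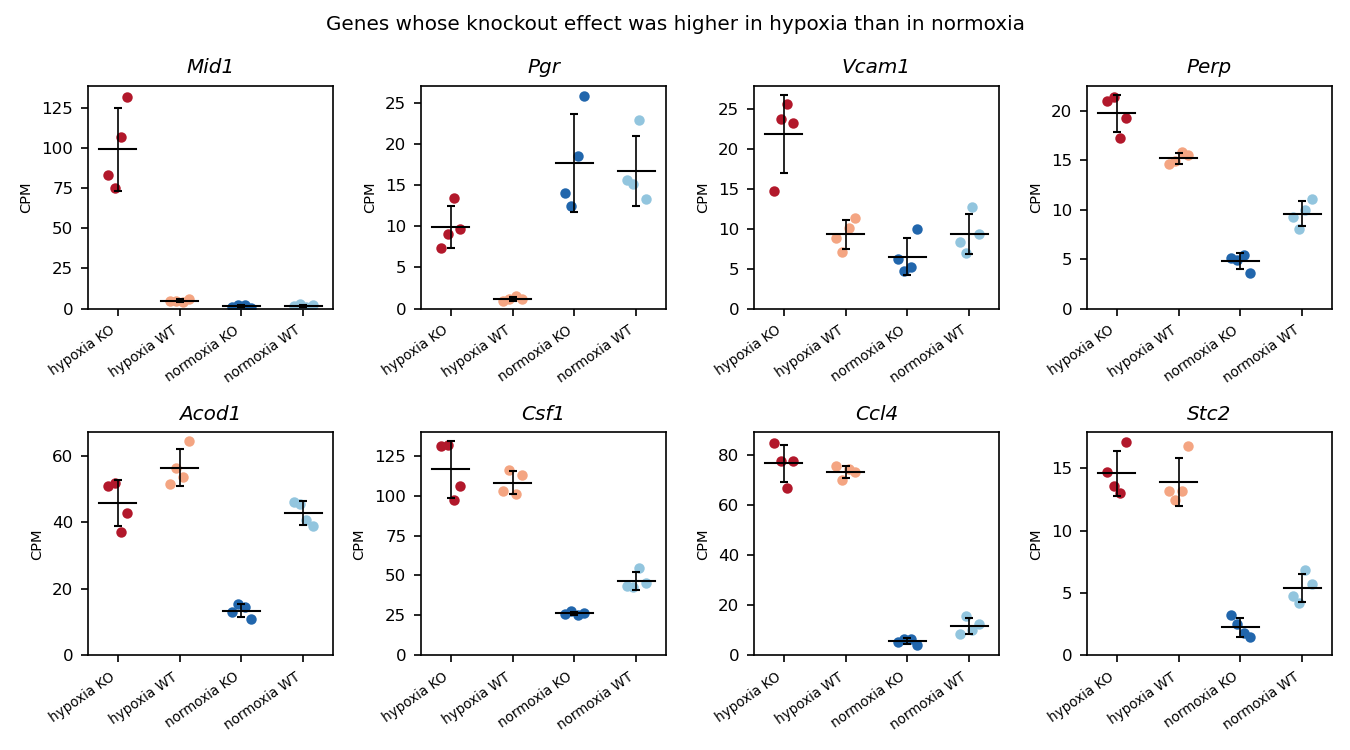
CPM (y axis, 1 scale per gene) in each library (points) with the group mean and SD (bars) for 8 genes whose KO effect was higher in hypoxia than in normoxia. Mid1 is high in the hypoxia KO libraries alone, Pgr is low in the hypoxia WT libraries alone, and in Acod1, Csf1, Ccl4 and Stc2 the KO libraries lie under WT in normoxia.

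A list of genes of platelets and their precursors, the megakaryocytes, was added after these values were seen. Tubb1, the beta tubulin of platelets, had 6.94, 12.1, 6.45 and 9.80 CPM in hypoxia KO libraries against 2.63, 2.48, 3.41 and 2.92 CPM in hypoxia WT libraries, and at most 1.18 CPM in any normoxia library. Its difference was 1.85 ± 0.35 (edgeR adjusted p = 0.0192), and that of Itgb3, the beta chain of the platelet fibrinogen receptor, was 0.73 ± 0.14 (edgeR adjusted p = 0.0227). Of the 15 tested members these 2 were called, and the median difference was 0.31. The summed level of the list was 716 to 956 CPM in hypoxia KO, 488 to 513 CPM in hypoxia WT, 328 to 395 CPM in normoxia KO and 273 to 344 CPM in normoxia WT libraries. In the KO effect 14 of the 15 rose in hypoxia, and in normoxia 6 rose and 1 fell.

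The title of the series names STAT3, polyamines and metabolism, and the lists for these were described whatever they showed. None of the 19 genes of polyamine synthesis, transport and hypusination was called, and their median difference was -0.06, with 8 above and 11 below 0. The median KO effect was -0.23 in each condition. Odc1, the rate-limiting enzyme of polyamine synthesis, averaged 65.6 CPM in hypoxia KO against 114 CPM in hypoxia WT, and 61.4 CPM in normoxia KO against 97.9 CPM in normoxia WT libraries. The KO effect on Odc1 was -0.80 in hypoxia (edgeR adjusted p = 0.0197) and -0.67 in normoxia (edgeR adjusted p = 0.0563), and the difference of -0.13 had a 95% interval of -0.83 to 0.57. The members with the smallest p were Atp13a2, a lysosomal polyamine exporter (-0.52, edgeR adjusted p = 0.56), Azin2, an activator of Odc1 (0.47, adjusted p = 0.592), and the oxidases Paox (0.26, adjusted p = 0.666) and Smox (-0.49, adjusted p = 0.855). These intervals do not show that the effects were equal.

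Of 11 tested genes of arginine use and nitric oxide none was called, with a median difference of 0.07. Arg1, the arginase that depletes arginine in suppressive myeloid cells, had 85.3, 45.6, 43.3 and 30.0 CPM in hypoxia KO libraries and 165, 175, 194 and 107 CPM in hypoxia WT libraries. In normoxia it had 1.58, 1.16, 7.95 and 3.77 CPM in KO libraries and 23.3, 5.86, 48.0 and 23.1 CPM in WT libraries. KO libraries were below WT libraries in hypoxia, and overlapped by 1 WT library in normoxia. Arg1 fell in KO cells in both conditions (KO effects -1.65 and -2.81), and the wide interval of its difference, -0.64 to 2.95, left a large range of values possible. Ass1, which feeds arginine synthesis, fell by 1.36 in hypoxia and by 1.03 in normoxia, with a difference of -0.33 ± 0.19 (edgeR adjusted p = 0.738). Nos2, the inducible nitric oxide synthase, had a difference of 0.24 ± 0.69. Gatm, which uses arginine to make creatine, came closest to a call at 0.58 ± 0.14 (edgeR adjusted p = 0.0718), followed by Ddah2 at -0.91 ± 0.31 and the mitochondrial arginase Arg2 at -0.76 ± 0.32 (edgeR adjusted p = 0.324 and 0.528).

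Among 27 IL-6 and STAT3 genes none was called, and the median difference was -0.11. DESeq2 called 2 of them. Stat3 itself had a difference of -0.13 ± 0.15. Socs3, the feedback inhibitor of this pathway, had 69.1, 77.9, 99.3 and 67.4 CPM in hypoxia KO libraries, 89.6, 100, 115 and 99.6 CPM in hypoxia WT libraries, 83.9, 75.2, 78.6 and 97.3 CPM in normoxia KO libraries and 60.6, 60.7, 75.0 and 52.3 CPM in normoxia WT libraries. It fell in KO cells in hypoxia (KO effect -0.37) and rose in normoxia (0.43), and the difference of -0.80 ± 0.18 lay just past the threshold (edgeR adjusted p = 0.0526). Without normoxia WT library 3 or hypoxia KO library 3 the difference in Socs3 was called, as it was in 5 of 13 other settings. Il6 averaged 41.1 CPM in hypoxia KO against 37.6 CPM in hypoxia WT, and 0.965 CPM in normoxia KO against 2.24 CPM in normoxia WT libraries. It fell in normoxia (KO effect -1.2), and its difference of 1.33 ± 0.31 was not called (edgeR adjusted p = 0.0751). Of the 16 fits without 1 library, only the fit without hypoxia KO library 3 called Il6, and 2 of 13 other settings did. The signalling chain Il6st had a difference of -0.69 ± 0.28 (edgeR adjusted p = 0.482). Outside this list, the cadherin gene Cdh23 rose in both (KO effects 2.34 and 2.14, difference 0.21 ± 0.39). Cdh23 (chr10:60302748-60696490, minus strand) spans the targeted gene Vsir (chr10:60346851-60372684, plus strand). An effect of the KO allele or of how reads were assigned there cannot be told apart from a response of Cdh23, and was not tested.

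HIF targets had higher summed levels in hypoxia in both genotypes, and in most members the KO effect was the higher one in hypoxia without a call. Of 27 tested, 23 had a difference above 0, with a median of 0.18, 6 with an unadjusted p under 0.05 and none called. The median KO effect was -0.14 in hypoxia, with 3 members that rose and 5 that fell, and -0.35 in normoxia, with 2 that rose and 13 that fell. Their summed level was 7030 to 8000 CPM in hypoxia KO and 7780 to 8330 CPM in hypoxia WT libraries, against 3250 to 3740 CPM in normoxia KO and 3550 to 4170 CPM in normoxia WT libraries. Vegfa, the vascular growth factor, averaged 265 CPM in hypoxia KO against 240 CPM in hypoxia WT, and 76.4 CPM in normoxia KO against 111 CPM in normoxia WT libraries, with a difference of 0.69 ± 0.19 (edgeR adjusted p = 0.165). Hilpda, a lipid droplet protein, had a difference of 0.73 ± 0.20 (edgeR adjusted p = 0.159), the stress gene Ddit4 0.64 ± 0.17 (adjusted p = 0.134) and Pdk1, which holds pyruvate out of mitochondria, 0.48 ± 0.16 (adjusted p = 0.317). Slc2a1, the glucose transporter GLUT1, fell by 0.54 in hypoxia and by 0.52 in normoxia, with an interval of the difference of -0.30 to 0.26. Hif1a had a difference of 0.12 ± 0.12, and Cpt1a, which admits fatty acids to mitochondria, one of -0.09 ± 0.12.

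Of 22 suppressive myeloid genes 1 was called, and the median difference was 0.06. Olr1, the oxidised lipoprotein receptor LOX-1 that marks suppressive neutrophils in humans, had 29.3, 32.7, 32.0 and 35.3 CPM in hypoxia KO libraries and 30.7, 31.4, 34.6 and 37.5 CPM in hypoxia WT libraries. Normoxia KO libraries had 15.7, 15.6, 16.8 and 16.5 CPM, and normoxia WT libraries had 25.1, 26.3, 25.9 and 29.4 CPM. The genotypes overlapped in hypoxia and were well apart in normoxia, and the difference was 0.67 ± 0.12 (edgeR adjusted p = 0.0117). Cybb, the catalytic chain of the phagocyte oxidase, had a difference of 0.46 ± 0.12 (edgeR adjusted p = 0.136), the prostaglandin E synthase Ptges 0.54 ± 0.16 (adjusted p = 0.211) and Wfdc17 -0.81 ± 0.33 (adjusted p = 0.498). S100a8 and S100a9, the subunits of calprotectin, had differences of 0.09 ± 0.21 and 0.14 ± 0.21, Cd274, the ligand PD-L1, 0.08 ± 0.15, Il1b 0.12 ± 0.26 and Ly6g 0.41 ± 0.38, none of them called. Il1b, Cd274 and Ly6g were each called in both conditions with the same sign, Ly6g higher and the other two lower in KO cells.

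**Figure D4:**
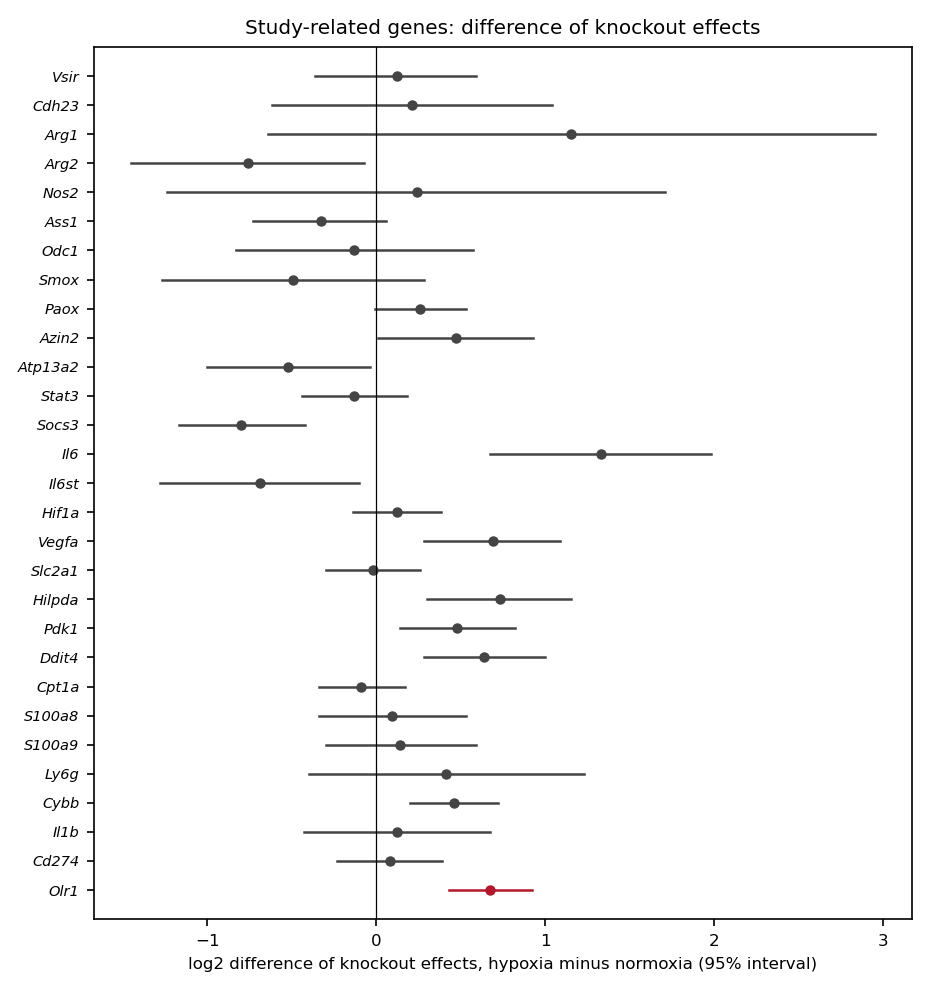
Difference of the KO effects (x axis, log2, hypoxia minus normoxia) with its 95% interval for 29 genes tied to the study's title or its cell type. Olr1 (red) is the only one called among them, and the intervals of Arg1 and Nos2 are the widest.

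Genes of respiration leaned to values below 0 without a call, and lists outside the respiratory chain did so too. The difference lay below 0 in 41 of 47 proteasome, 61 of 77 mitochondrial ribosome and 25 of 28 lysosome and cathepsin genes. In the proteasome list 33 genes fell in hypoxia against 10 in normoxia, and in the mitochondrial ribosome list 53 against 19. Over all tested genes 14.4% fell in hypoxia and 8.14% in normoxia, and the median difference was -0.0099. The median KO effect was below 0 in both conditions, at -0.35 in hypoxia and -0.21 in normoxia for the proteasome. For the mitochondrial ribosome it was -0.39 and -0.22. All 13 protein genes of the mitochondrial genome had a difference below 0, with a median of -0.35, between -0.50 and -0.26, and 6 with an unadjusted p under 0.05. Their median KO effect was 0.03 in hypoxia, with no call, and 0.38 in normoxia, where 7 rose. These genes are transcribed together, and the smallest edgeR adjusted p was 0.187, in mt-Nd3 (difference -0.44). All 17 ATP synthase genes, which are encoded in the nucleus, also lay below 0, with a median of -0.19, but here the KO effect was lower in hypoxia (median -0.39, 13 fell) than in normoxia (median -0.15, 1 fell). In respiratory complex I the difference lay below 0 in 33 of 39 genes with a median of -0.20, and 29 fell in hypoxia against 6 in normoxia. With scaling by library size alone 16 of the 17 ATP synthase genes and 32 of the 39 complex I genes were below 0, and the mitochondrial genome was unchanged at 13 of 13. The summed level of the mitochondrial genome was 39100 to 50800 CPM in hypoxia KO, 40300 to 51500 CPM in hypoxia WT, 41500 to 58300 CPM in normoxia KO and 34900 to 44400 CPM in normoxia WT libraries.

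The other direction was seen in primary granule genes of early neutrophils, where 10 of 10 had a difference above 0 with a median of 0.41, 5 with an unadjusted p under 0.05 and none called. In hypoxia 6 of them rose in KO cells and in normoxia 1, with median KO effects of 0.51 and 0.12. Elane, the neutrophil elastase, had a difference of 0.58 (edgeR adjusted p = 0.261), and Gfi1, a repressor needed for neutrophil development, 0.65 (edgeR adjusted p = 0.211). Of 24 later neutrophil genes 18 rose in KO cells in hypoxia, and 19 rose and 1 fell in normoxia, with a median difference of 0.18 and no call. The DNA replication and mitosis lists had median differences of 0.00 and -0.03 and no call. Chemokines had 2 calls of 18, Ccl4 above and Ccl17 below 0, and a median of 0.38, and the 12 tested inflammatory cytokine genes had 1, Csf1, and a median of 0.28.

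**Figure D5:**
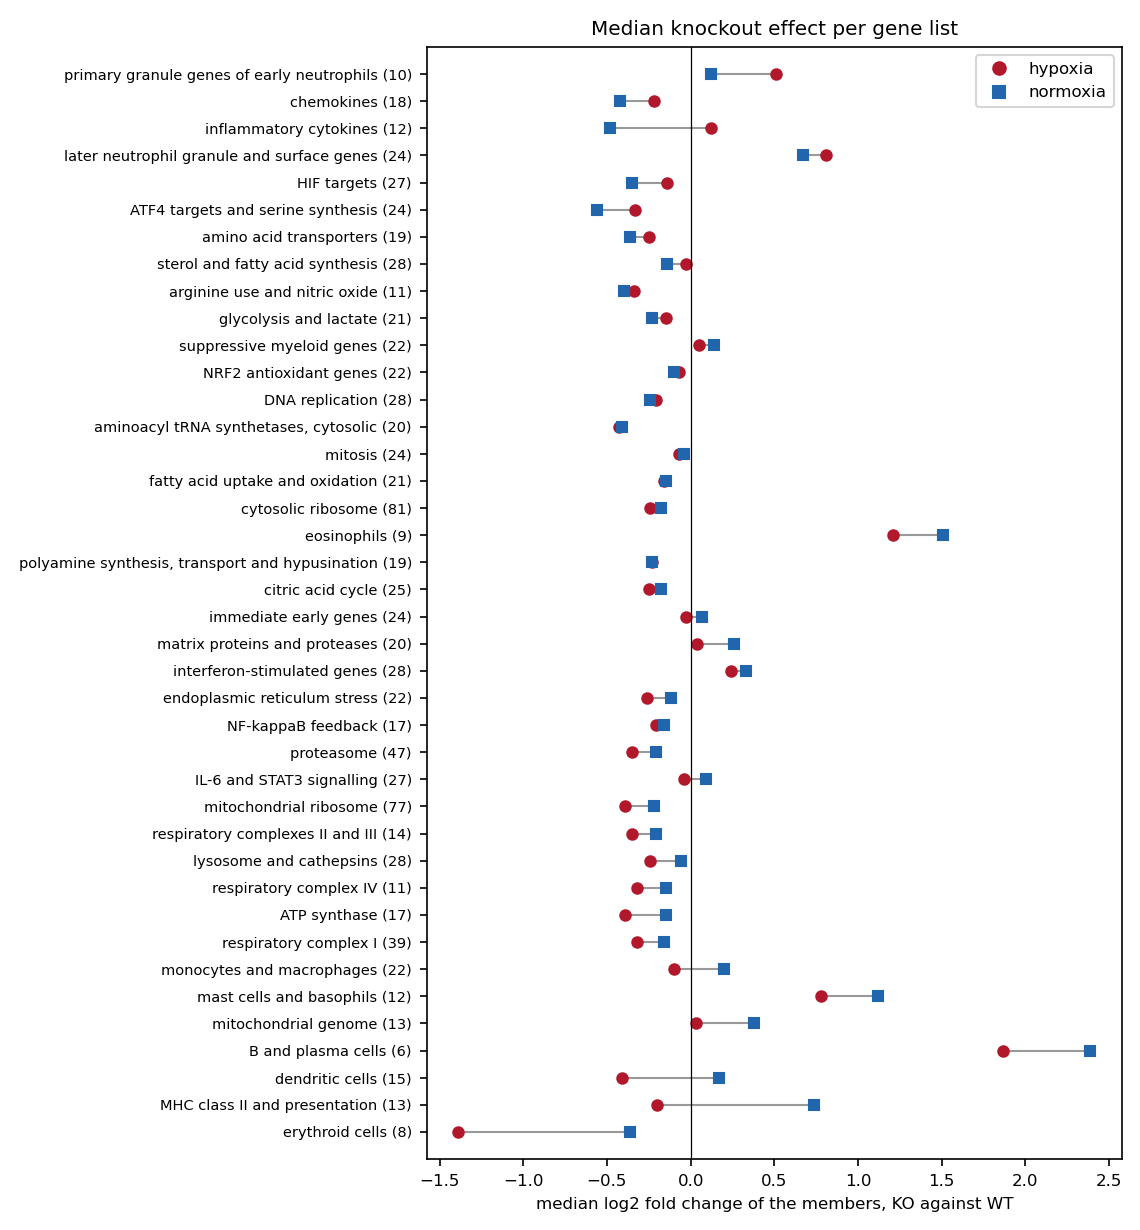
Median log2 KO effect in hypoxia (red circles) and normoxia (blue squares) of 40 gene lists with the number of tested members in brackets, ordered by the median difference of the members. MHC class II and dendritic cell genes have medians below 0 in hypoxia and above 0 in normoxia, and the lists of polyamine and aminoacyl tRNA synthetase genes have nearly equal medians.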

How the data were processed

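Per the labels' protocols, an RNeasy kit was used to isolate RNA and a Takara SMART-Seq kit to prepare the libraries. The deposited values are raw counts per gene, and the submitters' processing notes name Subread, featureCounts, DESeq2 and GRCm38.p6. Whether counting used strand is not given in the sources used here, so overlapping and antisense genes are uncertain.

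The 2 culture tables, of 33265 genes in hypoxia and 23912 in normoxia, were joined on the 23187 genes listed in both. In R 4.3.3, edgeR 4.0.16 (filterByExpr, TMM, robust quasi-likelihood fit, 12 residual degrees of freedom) fitted 4 group means, and 3 contrasts gave the KO effect in each condition and their difference, with Benjamini-Hochberg adjustment at 0.05 over all 15293 tested genes. No 2 replicates agreed within sampling noise. The steps were tested on simulated data. Alternatives used DESeq2 1.42.0, limma 3.58.1, other scalings and filters, replicate blocks and each library left out.

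Genes, lists and members were chosen with earlier results of these data known. Named genes were Vsir, the 10 most positive and 10 most negative called genes (mean log2 CPM 3 or more, predicted names passed over), the 8 with opposite called effects, up to 4 members with the smallest p of each described list (at least 5 tested and 15% called, plus the lists from the study's title, hypoxia and suppression) and a fixed set of study genes. Other names were chosen after their values were seen. Promoter sequences are from RefSeq, and 51 of the 73 called genes had one in the table. The tumor libraries were not used here.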

Additional observations from a re-analysis of the deposited data

Results flagged for a closer look

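The difference between the KO effects was itself tested and called in 24 of the 58 named genes (edgeR adjusted p under 0.05). Above 0 these were Mid1 (4.55), Pgr (2.96), Vcam1 (1.76), Perp (1.38), Acod1 (1.37), Stc2 (1.33), Ccl4 (1.12), Csf1 (0.92), Far2 (0.89), Arsb (0.79), Olr1 (0.67) and Chst11 (0.59), all in log2 units. Below 0 they were Ciita (-2.71), H2-Ab1 (-2.45), Plet1 (-2.10), Ccl17 (-2.03), Vcan (-1.43), Pira2 (-1.32), Olfml2b (-1.12), Crybg1 (-0.94), P2ry13 (-0.79), Met (-0.76), Cst3 (-0.63) and Arhgef10l (-0.59).

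In 19 of 232 groups of 4 libraries, 1 library stood far from the other 3 by Dixon's criterion, which chance alone meets in about 5% of groups. In hypoxia KO these were library 4 for Vsir (117 CPM) and Plet1 (8.25 CPM), library 2 for Far2 (16.1 CPM) and library 3 for Atp13a2 (200 CPM). In hypoxia WT they were library 4 for Mid1 (6.30 CPM) and Stc2 (16.8 CPM) and library 2 for Olfml2b (29.9 CPM) and Il6st (123 CPM). In normoxia KO library 4 stood apart for Crybg1 (44.3 CPM), Ass1 (83.6 CPM) and Cdh23 (27.3 CPM). In normoxia WT library 3 stood apart for Vsir (818 CPM), Met (23.9 CPM), Paox (19.5 CPM) and Smox (27.3 CPM), library 2 for Arsb (70.4 CPM), Ass1 (295 CPM) and Cd274 (31.3 CPM), and library 1 for Ptges (9.03 CPM).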

How the results depend on the processing

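Against 73 genes in the difference, DESeq2 called 200, a fold threshold of 1.2 called 34, and leaving out normoxia WT library 3 and KO library 4 together called 126. With the replicate number as a block, the difference was called in 35 genes over all groups and in 40 within each oxygen condition. Same-numbered libraries had correlations of their deviations from -0.356 to 0.292. With 4 libraries a group these do not settle whether the numbers pair the libraries, and the labels give no pairing. Leaving out 1 library gave 40 to 100 genes in the difference, 2929 to 5381 in hypoxia and 1782 to 3867 in normoxia. With the fold threshold 1505 genes were called in hypoxia and 804 in normoxia. The 8 normoxia libraries fitted alone gave 1577, and the 8 hypoxia libraries fitted alone gave 5245. The causes were not tested. The other scalings, filters, thinning to equal totals and voom kept the count of the difference between 56 and 84. Of the named calls, Arhgef10l, Arsb, Ccl4, Cst3, Far2, H2-Ab1, Met, P2ry13 and Stc2 were lost under at least 1 of the blocks and at the fold threshold. Ciita was lost under both blocks (edgeR adjusted p = 0.0512 over all groups and 0.0828 within each oxygen condition) and with voom, and Vcan under both blocks (edgeR adjusted p = 0.0512 and 0.0715). Chst11 and Olr1 were lost at the fold threshold, H2-Ab1 and Vcam1 without the filter on low counts, Arhgef10l and Met with library size alone, and P2ry13 with voom and after thinning.

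Of the named genes, signs reversed only in 6 without a call. Over the fits without 1 library the difference ran from -0.34 to 0.04 in Odc1 (0.01 without normoxia KO library 2), from -0.11 to 0.6 in Nos2 (-0.09 and -0.03 without normoxia KO library 2 and normoxia WT library 1), from -0.11 to 0.06 in Slc2a1 (0.02 and 0.05 without hypoxia KO library 4 and normoxia WT library 3), from -0.02 to 0.29 in Il1b (0 without hypoxia KO library 1), from -0.01 to 0.24 in S100a8 and from -0.06 to 0.59 in Cdh23. With library size alone Slc2a1 was at 0.02. With library size alone the median KO effect of the IL-6 and STAT3 list in normoxia was -0.01 instead of 0.09, and that of the mitochondrial genome in hypoxia was -0.01 instead of 0.03. With 4 libraries a group and a median SE of 0.182, small differences were not detectable.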

Other observations

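A few called genes of low level are given here, chosen after their values were seen. Il2ra, the alpha chain of the IL-2 receptor, had 4.13, 3.64, 2.72 and 2.32 CPM in hypoxia KO libraries, 3.50, 5.98, 5.03 and 5.52 CPM in hypoxia WT libraries, 3.48, 6.37, 3.40 and 6.19 CPM in normoxia KO libraries and 1.27, 1.22, 1.22 and 1.15 CPM in normoxia WT libraries. The normoxia WT libraries alone were low, and the difference was -2.64 ± 0.34 (edgeR adjusted p = 0.00038). Itgae, the integrin CD103 of some dendritic and T cells, had a difference of -2.65 (edgeR adjusted p = 0.0082), and Zfp366, a zinc finger gene known as DC-SCRIPT, had -2.63 (edgeR adjusted p = 0.0193). Kmo, an enzyme of tryptophan breakdown, averaged 7.49 CPM in hypoxia KO against 8.01 CPM in hypoxia WT, and 7.92 CPM in normoxia KO against 4.06 CPM in normoxia WT libraries, with a difference of -1.06 ± 0.17 (edgeR adjusted p = 0.00724).

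Jun, a subunit of the AP-1 transcription factor, had 375, 391, 374 and 430 CPM in hypoxia KO libraries against 239, 257, 270 and 334 CPM in hypoxia WT libraries. In normoxia it had 62.5, 60.6, 62.1 and 59.7 CPM in KO libraries against 63.8, 70.8, 71.9 and 65.3 CPM in WT libraries. Its difference was 0.66 ± 0.12 (edgeR adjusted p = 0.0192), the only call among 24 immediate early genes. Vim, which encodes the filament protein vimentin, averaged 2000 CPM in hypoxia KO against 2800 CPM in hypoxia WT, and 1190 CPM in normoxia KO against 1080 CPM in normoxia WT libraries, a difference of -0.62 ± 0.14 (edgeR adjusted p = 0.0476).

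Of the 73 called genes 9 were pseudogenes (12.3%), near their share of 9.84% among the tested genes. The transcripts of Gm2606, Gm12537, Gm7336, Gm12671 and Gm14760 are 99.9% to 100% identical to Gapdh over the aligned part. Each of these pseudogenes had 60 tested genes alike to it at 85% identity or more, and 4 of the 60 were called. Over all tested genes 0.477% were called. The KO effects in hypoxia and normoxia were 0.92 and 2.07 in Gm2606, 0.21 and 0.86 in Gm12537, and 0.16 and 0.74 in Gm7336. They were 0.15 and 0.73 in Gm12671, and 0.21 and 0.76 in Gm14760. The differences, listed by gene as above, were -1.15, -0.66, -0.58, -0.58 and -0.55. All their normoxia effects were called, but in hypoxia only those of Gm2606 and Gm12537. Gapdh itself went the other way and fell in both conditions (KO effects -0.46 and -0.52) with a difference of 0.05 (edgeR adjusted p = 0.989). How reads were divided between Gapdh and these pseudogenes was not tested.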
